A study of Homo sapiens with 37 samples.

Results

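WI-38, a strain of human diploid fibroblasts from fetal lung, was sequenced as total RNA after it had received an empty vector and puromycin, and as an untreated control. The comparison addresses what the vector, the selection and the time that they take change on their own, without mutant HRAS or doxorubicin. It rests on 4 of the 37 libraries of the series: 2 of the empty vector, titled WI-38 EV, and 2 of the untreated control, titled WI-38 Dox- without the word Repeat. The EV cells had been given the vector at a multiplicity of infection (MOI, viral particles per cell) of 10 and puromycin at 1 µg/mL. The Dox- controls had received neither. Beside them stand 2 libraries of cells given mutant HRAS by lentivirus at the same MOI and puromycin dose, and 2 libraries of cells given doxorubicin (Dox+), a DNA-damaging drug, at 2 µg/mL for 24 h. All these libraries were labelled as population doubling level 25, from cells in DMEM with 10% serum. The text that describes the vector treatment has a gap in it, and the labels do not name the empty vector's kind or its promoter, the time from infection to harvest, or whether the 2 libraries of a group came from separate cultures. The p-values therefore reflect the scatter within the groups of all these libraries, mutant HRAS and Dox+ included, which may be technical. The vector, puromycin, the days in culture and the handling of a group's RNA cannot be told apart in this design.

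Relative to the untreated controls, EV cells had lower transcripts of cell division. An edgeR model was fitted without correction, with correction for base composition, and with correction for base composition and transcript length, and 34 of 38 mitosis genes and 28 of 39 DNA replication genes were called lower in all 3 fits, against 8.59% of all genes. On the higher side, 15 of 33 collagen and matrix genes were called in all 3 fits, against 7.7% of all genes. CDKN1A, which encodes the cell cycle inhibitor p21, was higher in EV by 1.31 on the log2 scale, and the secreted proteases MMP1, MMP3 and MMP10 were lower. CDKN2A, which encodes the inhibitor p16, did not pass the test without correction (0.01) and did with GC correction (-0.44). With correction for GC and length its value was -0.19. The differences followed the base composition of the transcripts closely, which bears on the size of nearly every value.

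Puromycin is an aminonucleoside that ends protein synthesis early and kills cells without a resistance gene. Cells given an empty vector and the same selection are the usual control for cells that receive the vector with a transgene, since they have gone through the same infection and drug. In normal fibroblasts, withdrawal from the cell cycle lowers the transcripts of DNA replication and mitosis, which the retinoblastoma family, with E2F factors and the DREAM complex, keeps silent in resting cells. The resistance gene was not analysed here, so the vector label was not checked from the counts.

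The EV libraries held 153049881 and 139060207 counts, against 141476461 and 162915801 counts in the Dox- controls. Protein-coding genes took 55.89% and 50.69% of the EV counts, against 63.6% and 57.29% of the control counts. Mitochondrially encoded genes took 0.324% and 0.3051% in EV and 0.1864% and 0.123% in the controls. The 2 libraries of a group differed by far more than sampling noise (chi-square per degree of freedom 120 for EV and 83.7 for Dox-), so neither pair was 1 library deposited again. The 15 fibroblast markers examined were all above 1 CPM (counts scaled to a library total of 1000000, here the total of protein-coding genes) in all 4 libraries, and their summed level was 23111 and 26628 CPM in EV cells against 15920.4 and 15792 CPM in the controls.

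The differences between EV and Dox- followed the base composition of the transcripts, and this is given before any gene because it touches every value. Over 10562 protein-coding genes, the log2 fold change of a gene and the GC content of its longest transcript had a Spearman rho of 0.80, as a description across genes, which are not independent replicates. It was present in each EV library against the control mean (0.75 and 0.82), and EV library 2 against EV library 1 had a rho of 0.84, so the 2 EV libraries also differed from each other along GC content. Control library 2 against control library 1 had a rho of 0.32. With each gene centred on its mean over all 37 libraries, the rho within a library was 0.65 and 0.78 in EV, and 0.46 and 0.58 in the libraries of mutant HRAS, whose cells had received a vector at the same MOI. In the Dox- controls it was 0.01 and 0.07. The other libraries of the series lay between -0.41 and 0.22. Mutant HRAS against EV had a rho of -0.10 and doxorubicin against Dox- one of -0.03. Both groups that had received a vector thus shared the relation with GC content, which cannot be told apart from the vector treatment. Its part in any single gene's difference was not tested.

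A stretch of coding sequence from a gene at either end shows the range of composition, with G and C in capitals. One is coding bases 1057 to 1116 of HMMR, a spindle-associated hyaluronan receptor on chromosome 5, whose 3102-base transcript is 36.65% GC. The other is coding bases 3451 to 3510 of NOTCH3, a receptor of the Notch family on chromosome 19, whose 8666-base transcript is 63.06% GC.
HMMR: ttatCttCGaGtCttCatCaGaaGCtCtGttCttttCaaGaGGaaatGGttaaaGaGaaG
NOTCH3: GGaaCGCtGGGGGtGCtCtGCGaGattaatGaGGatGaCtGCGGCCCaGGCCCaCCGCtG
HMMR was counted at 8.11 and 4.88 CPM in EV cells, against 40.1 and 37.9 CPM in Dox- controls. NOTCH3 was counted at 34.6 and 52.8 CPM in EV cells, against 13.1 and 14.7 CPM in the controls. Neither gene's groups overlapped, and in both EV library 2 lay farther from the controls than EV library 1.

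Without correction, 95.2% of the 1813 protein-coding genes under 40% GC were called lower in EV, with a median log2 fold change of -1.21, and 0.276% were called higher. Of the 1401 genes at 60% GC or more, 1.57% were called lower and 55.4% higher, with a median of 0.45. Genes were therefore tested in 3 fits of the same edgeR quasi-likelihood model: without correction, with an offset per library that removes the relation to GC content, and with a further offset that removes the relation to transcript length. The GC offset brought the rho with GC to 0.02 but left one of 0.38 with length, and the offset for both brought these to 0.03 and 0.01. The offsets remove every relation with composition or length, whatever its source. A gene is called where its Benjamini-Hochberg adjusted p over all genes tested is below 0.05, and calls made in the same direction by all 3 fits are counted separately. Values of single genes are given without and with GC correction, and from the third fit where it is named. Whether the counting used strand is not given in the sources used here, so reads of overlapping genes on opposite strands cannot be told apart. Among the genes described, this applies to CDKN1A, CDKN2A, MDM2, IL6, MMP1, MMP3, CYP1B1, ICAM1, IGFBP5, ACTA2, FAP, HSPG2, CEMIP, ANK1, MCM2, RRM1, PLK1, FOXM1, HMMR, MAD2L1, SMC4, NCAPG, ID2, TGFB3, GREM1, TCF7, DKK1, SREBF2, IDI1, SLC2A1, SLC7A5, DDIT3, DDIT4, GNL3, CGAS, ISG15, MX1, KRT8, KRT18, LMOD1 and MYOCD.

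**Figure D1:**
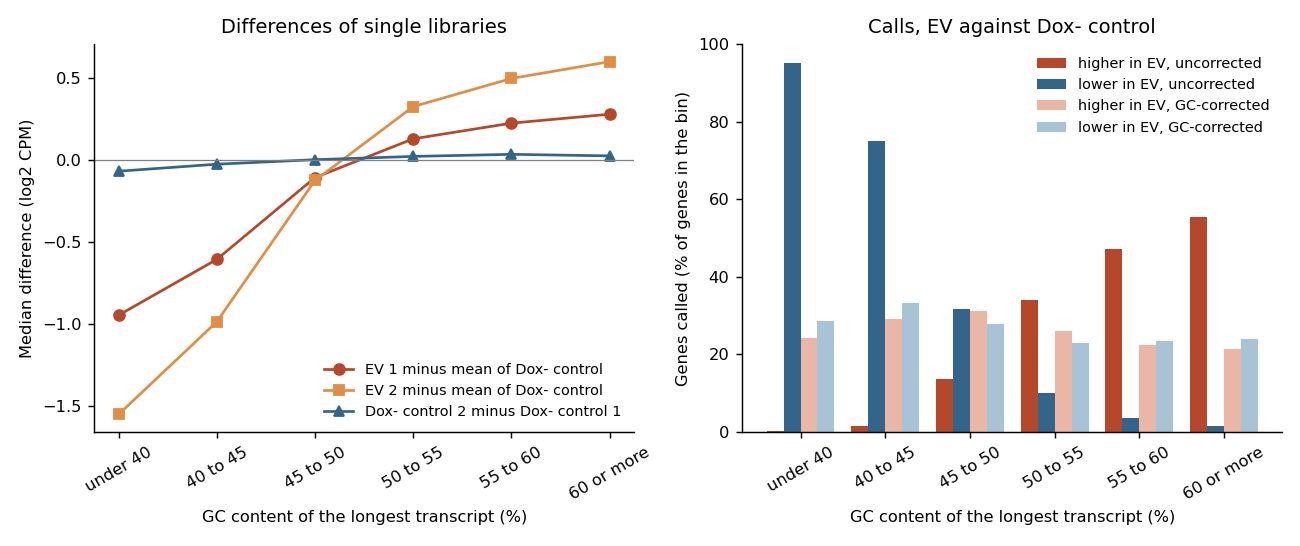
Left, the median log2 CPM difference of protein-coding genes in bins of GC content for EV library 1 and EV library 2 against the mean of the Dox- controls, and for control library 2 against control library 1; right, the percentage of genes in each bin called higher or lower in EV before and after GC correction. The EV lines fall to -0.95 and -1.55 under 40% GC and reach 0.28 and 0.60 at 60% or more, while the control line stays near 0, and the corrected calls are spread over the bins with 21.3% to 31.3% higher and 22.9% to 33.3% lower.

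Without correction, 29380 genes were tested, of which 4588 (15.6%) were called higher in EV than in Dox- and 6427 (21.9%) lower. Of these, 1448 (4.93%) were at least 2-fold higher and 3612 (12.3%) at least 2-fold lower. The median log2 fold change of all genes tested was 0.07. With GC correction, 27524 genes were tested, and 5410 (19.7%) were called higher and 3961 (14.4%) lower. Of these, 1901 (6.91%) were at least 2-fold higher and 784 (2.85%) at least 2-fold lower, and the median was 0.12. With correction for GC and length, 22.2% were called higher and 12.9% lower, and the median was 0.18. For 592 genes a call was made in one direction without correction and in the other with GC correction. All 3 fits called 2120 genes higher (7.7% of 27524) and 2365 genes lower (8.59%), and these are the shares against which the gene groups are read. They cover noncoding and weakly counted genes too, while the lists hold mostly protein-coding genes. Over bins of protein-coding genes with an average log2 CPM of at least 2, 21.3% to 31.3% were called higher and 22.9% to 33.3% lower with GC correction. Their shares in all 3 fits were not computed, so a list above the shares of all genes may not exceed similar genes.

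HRAS itself was counted at 1944 and 1989 CPM in mutant HRAS cells, 36.1 and 47.0 CPM in EV cells and 36.7 and 39.7 CPM in Dox- controls. The EV and control ranges overlapped, and both lay far below the transgene libraries. HRAS had a log2 fold change of 0.12 between EV and Dox- without correction (edgeR adjusted p = 0.529), one of -0.36 with GC correction (adjusted p = 0.00266) and one of -0.14 with correction for GC and length (adjusted p = 0.135).

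Genes of cell division were lower in EV. MKI67, the antigen of cycling nuclei used to score dividing cells, was counted at 28.5 and 35.9 CPM in EV cells, against 57.7 and 54.0 CPM in Dox- controls. BIRC5, the chromosomal passenger protein survivin, was counted at 47.6 and 53.3 CPM in EV cells, against 81.7 and 84.8 CPM in the controls. Both EV libraries lay below both controls for either gene. MKI67 fell by 0.79 ± 0.20 on the log2 scale (SE, 2 libraries a group, edgeR adjusted p = 0.00746), and its GC-corrected change was -0.74 (adjusted p = 0.00491). BIRC5 fell by 0.72 ± 0.14 (edgeR adjusted p = 0.00149), and its GC-corrected change was -0.91 (adjusted p = 8.59e-05). Without control library 1 the uncorrected MKI67 difference of -0.75 no longer passed the test. In bulk libraries, fewer cells of a type and less RNA per cell cannot be told apart.

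Of the 38 mitosis genes tested, 36 were called lower and 0 higher without correction, 37 and 0 with GC correction, and 34 were called lower in all 3 fits. Their median log2 fold change was -1.63 without correction and -0.95 with it. TOP2A, the topoisomerase that untangles sister chromatids, was counted at 72.0 and 52.9 CPM in EV cells, against 302 and 286 CPM in Dox- controls. CCNB1, the mitotic cyclin B1, was counted at 48.3 and 35.9 CPM in EV cells, against 129 and 136 CPM in the controls. In both genes the EV libraries lay well below the controls. TOP2A changed by -2.23 without correction and -1.15 with it, and CCNB1 by -1.66 and -1.01. Among the others, the kinase CDK1 changed by -2.59 and -1.42, the spindle motor KIF11 by -2.19 and -1.04, the kinetochore scaffold KNL1 by -2.12 and -0.95 and HMMR by -2.58 and -1.35, without and with GC correction. The 2 members not called without correction were PLK1, a mitotic kinase, and FOXM1, a transcription factor of G2 genes, named here because they were the exceptions. PLK1 was counted at 8.12 and 9.96 CPM in EV cells, against 9.95 and 9.75 CPM in the controls, and FOXM1 at 10.0 and 11.3 CPM against 11.5 and 12.95 CPM. Their log2 fold changes of -0.13 and -0.20 became -0.49 and -0.52 with GC correction, which passed the test.

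**Figure D2:**
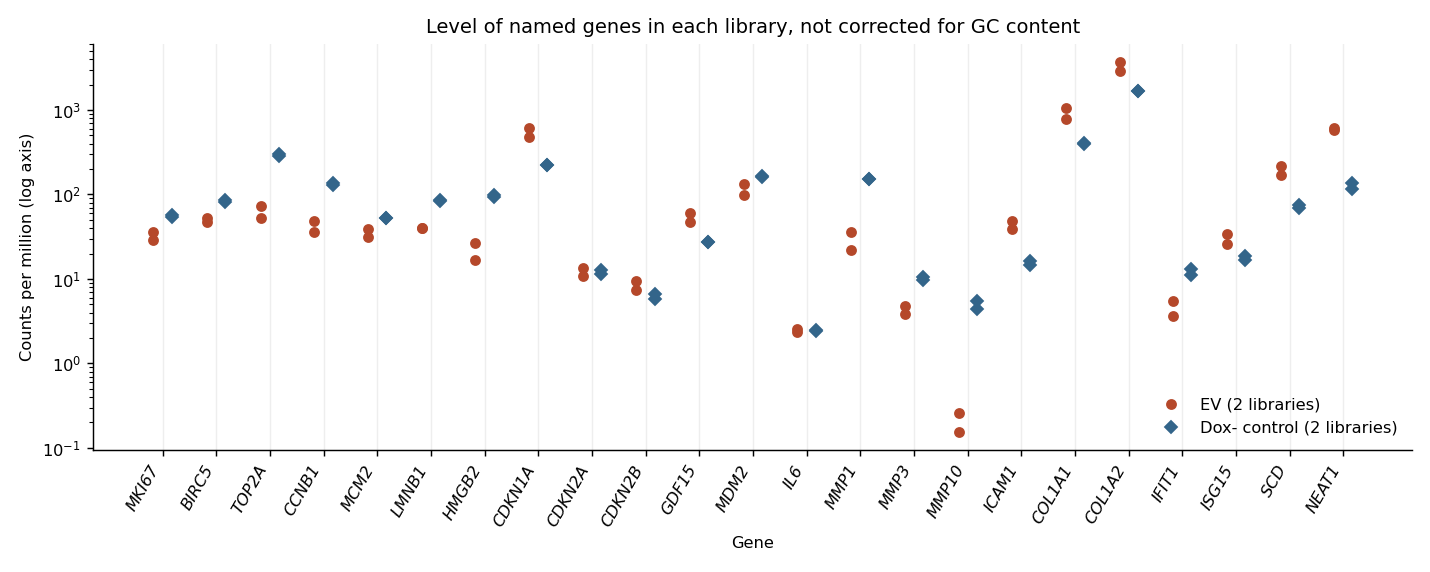
CPM of named genes in each library on a log axis, with EV as circles to the left and Dox- controls as diamonds to the right of each gene, not corrected for GC content. MKI67, BIRC5, TOP2A, CCNB1, LMNB1 and HMGB2 lie lower in both EV libraries, CDKN1A, COL1A1, SCD and NEAT1 lie higher in both, and the IL6 points of the 2 groups overlap.

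The 39 DNA replication genes tested gave 0 called higher and 31 called lower without correction, 0 and 35 with GC correction, and 28 lower in all 3 fits, with medians of -0.84 and -0.89. This median moved less with GC correction than that of the mitosis genes did. MCM2, a subunit of the replicative helicase, was counted at 30.996 and 38.9 CPM in EV cells, against 52.3 and 52.8 CPM in Dox- controls. It changed by -0.59 without correction and by -0.98 with it (edgeR adjusted p = 0.00584 and 2.49e-05). RRM1 and RRM2, the subunits of ribonucleotide reductase, changed by -1.89 and -1.18 without correction and by -1.29 and -0.87 with it. RRM2 shares 33.1% of its 31-base stretches with other genes, so reads may be split between them. The origin factor MCM10 changed by -1.70 and -1.07, and PCNA, the sliding clamp, by -1.70 and -1.33. PCNA was named after its values were seen. E2F1, a transcription factor of S-phase genes, was counted at 12.5 and 17.4 CPM in EV cells, against 21.3 and 21.2 CPM in the controls. It changed by -0.51 without correction, a call that was lost without EV library 1 or without either control, and by -0.98 with GC correction.

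The promoters of these genes are shown because promoters of the cell cycle are known for shared sequence elements. In 250 bases upstream of the start (RefSeq, GRCh38.p14, both strands searched), 31 of the 38 mitosis genes had an entry, and 77.42% of those held CCAAT, the box bound by NF-Y, against 33.04% of all 27305 promoters. The cell cycle homology region, searched as TTTGAA or TTCGAA, was in 58.06% of the mitosis promoters and 14.59% of all. Both were in 51.61% of the mitosis promoters and 5.24% of all. In 35 of the 40 DNA replication genes, an E2F element, searched as TTTCCCGC or TTTGGCGC, was in 42.86%, against 1.96% of all promoters, and CCAAT was in 62.86%. A match of letters is a description and not a bound site. The 150 bases before the start of MKI67 (chr10:128126424-128126573, minus strand), TOP2A (chr17:40417897-40418046, minus strand) and CCNB1 (chr5:69167000-69167149, plus strand) follow, read 5′ to 3′ on the gene's strand, with CCAAT on either strand and the cell cycle homology region in capitals.
MKI67: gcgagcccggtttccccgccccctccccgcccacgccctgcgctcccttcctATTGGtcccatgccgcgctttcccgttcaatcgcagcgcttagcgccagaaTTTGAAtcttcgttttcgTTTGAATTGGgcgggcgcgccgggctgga
TOP2A: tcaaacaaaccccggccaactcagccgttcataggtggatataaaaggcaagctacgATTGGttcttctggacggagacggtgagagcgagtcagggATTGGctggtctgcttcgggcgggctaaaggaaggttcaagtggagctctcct
CCNB1: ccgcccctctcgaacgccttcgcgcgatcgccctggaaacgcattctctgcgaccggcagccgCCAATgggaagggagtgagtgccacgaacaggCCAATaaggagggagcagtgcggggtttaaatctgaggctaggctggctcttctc
Each window held 2 CCAAT boxes. MKI67 also held 2 matches of the cell cycle homology region, 1 of which runs into a reversed CCAAT box, and the windows of TOP2A and CCNB1 held 0.

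The 8 replication-dependent histone genes tested, whose transcripts are made in S phase, gave 0 called higher and 7 called lower both without and with GC correction, and 5 were called lower in all 3 fits. The list holds 21 genes, of which 13 had no entry under the symbols used. H1-5, a linker histone, was counted at 125 and 153 CPM in EV cells, against 240.0 and 263 CPM in Dox- controls. H1-1 and H1-3, other linker histones, changed by -1.11 and -0.96 without correction and by -1.34 and -1.24 with it. For H1-5 these values were -0.86 and -1.27. Of the 23 genes of the nuclear lamina and chromatin, 13 were called lower and 1 higher without correction, 15 and 2 with it, and 10 were called lower and 0 higher in all 3 fits. LMNB1, the lamin B1 of the inner nuclear envelope, was counted at 40.2 CPM in both EV libraries, against 84.0 and 84.9 CPM in the controls. HMGB2, a DNA-bending protein of dividing cells, was counted at 26.9 and 16.9 CPM in EV cells, against 93.9 and 97.2 CPM in the controls. Neither gene's groups overlapped. LMNB1 changed by -1.07 ± 0.12 (SE) without correction and -1.21 with it, and HMGB2 by -2.12 ± 0.21 and -2.18 (edgeR adjusted p = 1.2e-05 and 4.53e-05 with GC correction). HMGB1, its relative, named after its values were seen, changed by -2.15 without correction and -1.02 with it. The condensin subunits SMC2, SMC4 and NCAPG changed by -2.16, -1.97 and -2.14 without correction, and by -0.97, -0.73 and -1.06 with it.

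Mutant HRAS and doxorubicin, which the study used to bring about senescence, were given to WI-38 cells in the same set of libraries. Summed over the 38 mitosis genes, CPM taken over protein-coding counts were 254 and 256 in mutant HRAS cells, 1760.1 and 1513 in EV cells, 292 and 278 in cells given doxorubicin and 4383 and 4132 in Dox- controls. The EV libraries lay between the treated groups and the Dox- controls of the same set and overlapped neither. Summed over the DNA replication genes, the values were 423 and 442 in mutant HRAS cells, 1432 and 1418 in EV cells, 472 and 464 in doxorubicin-treated cells and 2486.5 and 2488 in Dox- controls, and the EV libraries again lay between. The other WI-38 control groups, whose libraries gave 87.4% to 90.48% of counts to protein-coding genes, lay on both sides of EV for mitosis, with sums of 457 and 588 in Dox- Repeat, 639 and 630.5 in Proliferating Control and 2679 and 2621 in IR-. For DNA replication they lay below EV, with 479 and 459 in Dox- Repeat, 445 and 446 in Proliferating Control and 944 and 994 in IR-. The order above is that of the first set alone, and these sums are not corrected for composition. In a fit of the same 8 libraries, MKI67 changed by -3.63 between mutant HRAS and EV and by -5.07 between doxorubicin and Dox-, and LMNB1 by -3.63 and -4.75. All 38 mitosis genes were called lower after doxorubicin (13.2% of all genes tested) and 37 of 38 lower in mutant HRAS than in EV (18.9%), with medians of -4.17 and -2.53. The comparison of EV with Dox- shares its EV libraries with that of mutant HRAS and its control libraries with that of doxorubicin, so these values are not independent.

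**Figure D3:**
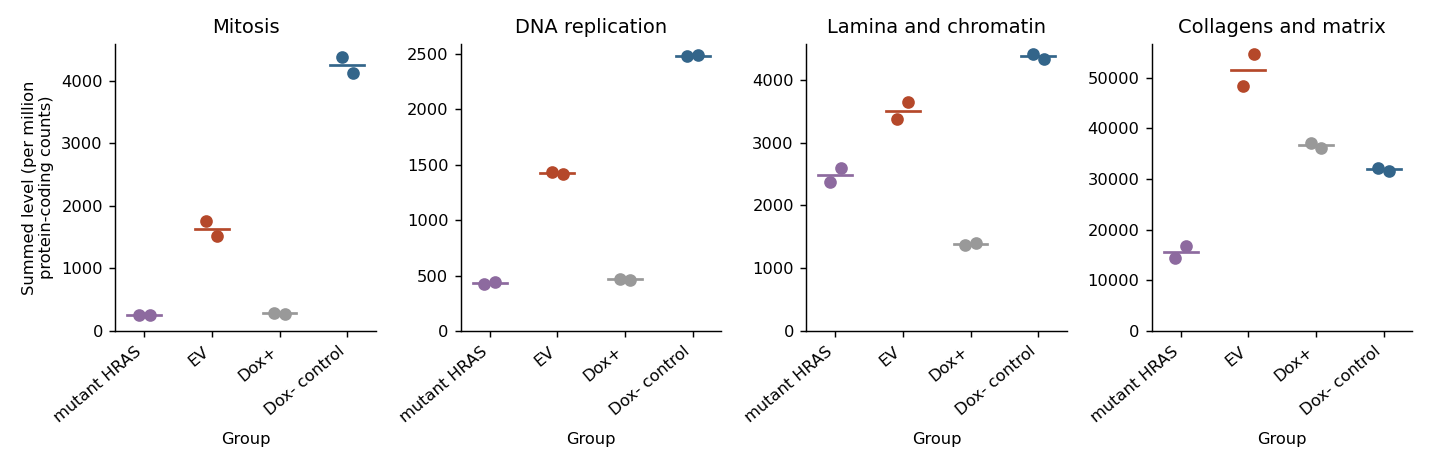
Summed CPM, taken over protein-coding counts, of 4 gene lists in mutant HRAS, EV, doxorubicin (Dox+) and Dox- control libraries, with each library as a point and the group mean as a line, not corrected for GC content. Other WI-38 control groups are not plotted. For mitosis and DNA replication the EV points lie between the Dox+ and mutant HRAS points below and the Dox- points above, and for collagens and matrix the EV points are the highest of the 4 groups.

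Of the 7 cyclin-dependent kinase inhibitors tested, 2 were called higher and 2 lower in all 3 fits. CDKN1A, the p53-induced inhibitor p21, was counted at 482 and 619 CPM in EV cells, against 221 and 225 CPM in Dox- controls. Both EV libraries were above both controls, and CDKN1A rose by 1.31 ± 0.14 on the log2 scale (SE, edgeR adjusted p = 0.000122), by 0.91 with GC correction and by 1.01 with correction for GC and length. The same gene was 2.39 higher in mutant HRAS than in EV and 1.72 higher after doxorubicin than in Dox-. CDKN2B, the inhibitor p15 of CDK4 and CDK6, was counted at 9.33 and 7.47 CPM in EV cells, against 6.62 and 5.72 CPM in the controls, and rose by 0.45 without correction and 0.91 with it. The uncorrected call was lost without EV library 1 (0.27) and without either control. CDKN2A, which encodes p16 and ARF and is an inhibitor long used as a marker of senescence, was counted at 10.9 and 13.5 CPM in EV cells, against 11.5 and 12.8 CPM in the controls. The groups overlapped (log2 fold change 0.01, edgeR adjusted p = 0.977), and the GC-corrected value of -0.44 passed the test. With correction for GC and length the value was -0.19. CDKN1B, the quiescence inhibitor p27, and CDKN2C, p18, were called lower in all 3 fits, with values of -1.05 and -0.88 without correction and -0.94 and -1.26 with it. CDKN1C, p57, had a log2 fold change of -0.01, which was not called, and one of -0.47 with GC correction, which was. With correction for GC and length it had -0.36.

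Among 28 p53 target genes, 12 were called higher and 7 lower without correction, 15 and 2 with GC correction, and 8 higher and 0 lower in all 3 fits, with medians of 0.30 and 0.27. The stress-responsive SESN2 was counted at 20.1 and 24.5 CPM in EV cells, against 9.13 and 9.03 CPM in Dox- controls, and changed by 1.30 and 0.88 without and with GC correction. The antiproliferative BTG2 changed by 1.12 and 1.02, and the secreted stress cytokine GDF15 by 0.97 and 0.50. MDM2, the ligase that degrades p53, was counted at 133 and 99.3 CPM in EV cells, against 166 and 163 CPM in the controls. It was called lower without correction (-0.50) and higher with GC correction (0.31), and correction for length as well brought it to -0.03, which was not called. The uncorrected call was lost without EV library 2 (-0.33), without either control (-0.49 and -0.52), with the compared groups only (-0.50) and with all 37 libraries (-0.37). Genes of quiescence and growth arrest gave 4 called higher and 8 lower of 18 tested without correction, 7 and 3 with GC correction, and 4 and 3 in all 3 fits. PDGFRB, a receptor for platelet-derived growth factor, changed by 1.10 and 0.72, and SFRP1, a secreted Wnt antagonist, by 1.03 and 0.95.

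**Figure D4:**
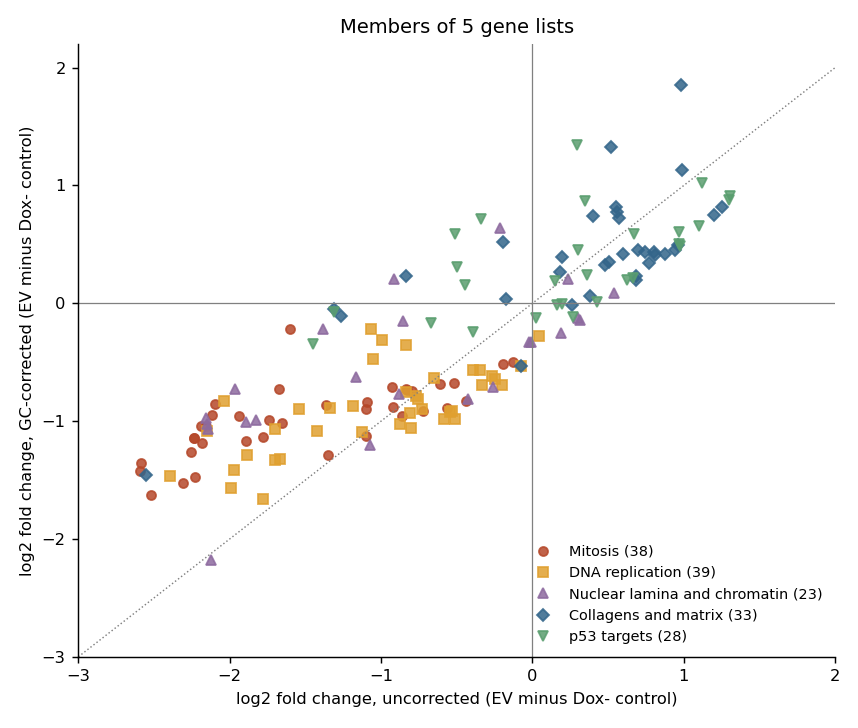
The log2 fold change of EV against Dox- for the members of 5 gene lists, without correction on the horizontal axis and with GC correction on the vertical axis, with the dotted line marking equal values. Mitosis genes, nearly all DNA replication genes and most lamina and chromatin genes lie below 0 on both axes, most collagen and matrix genes lie above 0 on both, and several p53 targets lie on opposite sides of 0 on the 2 axes.

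Collagen and matrix genes were mostly higher in EV. Of 33 collagen and matrix genes, 23 were called higher and 4 lower without correction, 24 and 2 with GC correction, 17 and 3 with correction for GC and length, and 15 and 1 in all 3 fits. The medians were 0.56 and 0.41 without and with GC correction, beside 0.07 and 0.12 for all genes. COL1A1, the alpha-1 chain of type I collagen, was counted at 792 and 1044.5 CPM in EV cells, against 405 and 396 CPM in Dox- controls. COL1A2, the alpha-2 chain, was counted at 2912 and 3649.9 CPM in EV cells, against 1669 and 1659 CPM in the controls. The EV libraries lay above the controls in both, and COL1A1 rose by 1.20 without correction and 0.75 with it, and COL1A2 by 0.98 and 1.85. COL3A1, of type III collagen, rose by 0.60 and 0.41, COL5A1, which regulates fibril width, by 1.25 and 0.81, COL11A1, of the minor fibrillar type XI, by 0.99 and 1.13, and FN1, fibronectin, named after its values were seen, by 0.52 and 1.33. The uncorrected FN1 call was lost without EV library 2 (0.31) and without either control (0.51 and 0.51). POSTN, the matricellular protein periostin, was counted at 13.5 and 9.33 CPM in EV cells, against 69.3 and 65.0 CPM in the controls. It was the 1 member called lower in all 3 fits, with -2.55 without correction and -1.46 with it. DCN, the proteoglycan decorin, changed by -1.27 without correction, but its GC-corrected value of -0.11 was not called (edgeR adjusted p = 0.483).

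Of the 15 fibroblast markers, which share some of these genes, 9 were called higher and 4 lower without correction and 8 and 1 in all 3 fits. FAP, a surface protease of activated fibroblasts, was the marker called lower in all 3, with -1.53 and -0.41. Of 11 smooth muscle and pericyte markers, 7 were called higher and 2 lower without correction, 5 and 2 with GC correction, and 4 and 1 in all 3 fits. LMOD1, an actin nucleator of smooth muscle, rose by 1.02 and 0.72, NOTCH3 by 1.65 and 1.17, and MYOCD, the co-activator of the smooth muscle programme, changed by -1.29 and -0.84. The 22 myofibroblast and YAP target genes gave 6 called higher and 3 lower without correction and 3 and 1 in all 3 fits. Beside these counts, all 3 fits called 7.7% of all genes higher and 8.59% lower. ACTA2, the smooth muscle actin that defines myofibroblasts, was counted at 345 and 396 CPM in EV cells, against 321 and 340.0 CPM in Dox- controls, a difference of 0.17 that was not called (edgeR adjusted p = 0.332). Its GC-corrected value was -0.01.

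The matrix metalloproteases MMP1, MMP3 and MMP10, which senescent fibroblasts are known to secrete, fell in EV. MMP1, the interstitial collagenase, was counted at 35.6 and 21.96 CPM in EV cells, against 151 and 154 CPM in Dox- controls. MMP3, stromelysin 1, was counted at 3.88 and 4.76 CPM in EV cells, against 10.4 and 9.73 CPM in the controls. MMP10, stromelysin 2, was counted at 0.257 and 0.156 CPM in EV cells, which is 45 and 22 counts, against 4.35 and 5.51 CPM in the controls, which is 706 and 920 counts. The EV libraries lay below the controls in all 3 genes. Called genes with an average log2 CPM of at least 2 and no overlap between EV and Dox- were ranked without correction. MMP10 had the lowest fold change after the chemokine CCL20. That average covers all 8 libraries of the fit, so genes low in EV and Dox- can enter through mutant HRAS or Dox+. MMP10 was counted at 47.3 and 44.6 CPM in mutant HRAS cells. MMP1 changed by -2.41 without correction and -1.80 with it, MMP3 by -1.22 and -0.78, and MMP10 by -4.55 and -3.99 (edgeR adjusted p = 3.8e-06 and 1.58e-06). The uncorrected MMP3 call was lost when all 37 libraries were fitted (-1.09). Between mutant HRAS and EV, MMP1, MMP3 and MMP10 rose by 7.74, 9.75 and 7.77 on the log2 scale. SERPINB2, the plasminogen activator inhibitor PAI-2, was counted at 0.770 and 0.306 CPM in EV cells, against 6.00 and 9.30 CPM in the controls, and changed by -3.80 and -2.91. It shares 24.4% of its 31-base stretches with other genes, among them SERPINB10, which changed by -3.39 and -2.31. In mutant HRAS cells SERPINB2 was counted at 306 and 238 CPM and SERPINB10 at 124 and 98.6 CPM.

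The wider list of 28 proteases, inhibitors and growth factors was mixed, with 9 called higher and 12 lower without correction, 8 and 13 with GC correction, and 6 and 7 in all 3 fits. TIMP3, a metalloprotease inhibitor bound to the matrix, was counted at 315 and 393 CPM in EV cells, against 150.03 and 145 CPM in Dox- controls. It changed by 1.26 and 1.28, and IGFBP5, a binding protein of insulin-like growth factors, by 0.69 and 0.50. Both were higher in both EV libraries than in both controls, and the uncorrected IGFBP5 call was lost when all 37 libraries were fitted (0.82). Of 24 genes of the inflammatory secretome, 2 were called higher and 7 lower without correction, 3 and 3 with GC correction, and 1 and 1 in all 3 fits. Among all genes, 15.6% were called higher and 21.9% lower without correction, and 7.7% and 8.59% in all 3 fits. The secretome counts in all 3 fits did not exceed those shares. ICAM1, a leukocyte adhesion molecule induced by NF-kappaB, was counted at 38.7 and 48.4 CPM in EV cells, against 14.8 and 16.4 CPM in the controls, and changed by 1.48 and 1.12. PTGS2, the inducible cyclooxygenase, changed by -2.08 and -0.88. IL6, the cytokine, was counted at 2.35 and 2.52 CPM in EV cells, against 2.41 and 2.50 CPM in the controls. The ranges overlapped, and the uncorrected log2 fold change of -0.01 (edgeR adjusted p = 0.963) became 0.47 with GC correction (adjusted p = 0.0124).

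The chemokine CXCL8 was counted at 1.97 and 1.90 CPM in EV cells, against 4.401 and 9.36 CPM in Dox- controls, and IL1B, an alarm cytokine, at 0.685 and 0.782 CPM against 0.185 and 2.53 CPM. In IL1B the controls lay on either side of both EV libraries, and control library 2 was the higher one for both genes. CXCL8 changed by -1.83 without correction, and its GC-corrected value of -0.46 was not called (edgeR adjusted p = 0.304). Without control library 2, IL1B had a log2 fold change of 1.97 in place of -0.89. CCL20, a chemokine for lymphocytes, had 0 and 0 counts in EV cells and 6 and 70 counts in the controls, so its level in control library 2 also stood apart.

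Among interferon-stimulated genes, more were called higher than lower. Of 31, 10 were called higher and 8 lower without correction, 12 and 3 with GC correction, and 7 and 3 in all 3 fits, with medians of 0.03 and 0.27. The shares of all genes in the 3 fits were 7.7% higher and 8.59% lower, and the lower count was near that share. IFI6, a mitochondrial protein induced by interferon, was counted at 11.9 and 17.3 CPM in EV cells, against 5.58 and 6.03 CPM in Dox- controls, and ISG15, a ubiquitin-like modifier, at 25.8 and 33.7 CPM against 16.9 and 18.5 CPM. IFIT1, which binds foreign RNA caps, was counted at 5.55 and 3.66 CPM in EV cells, against 13.2 and 11.2 CPM in the controls. IFI6 and ISG15 were higher in both EV libraries and IFIT1 lower. IFI6 changed by 1.33 and 0.98, ISG15 by 0.74 and 0.27, MX1, an antiviral GTPase named after its values were seen, by 1.42 and 1.20, and the transcription factor STAT2 by 0.66 and 0.57. IFIT1, IFIT3 and IFIT5 changed by -1.40, -1.38 and -1.66 without correction, and by -0.65, -0.90 and -0.49 with it. The GC-corrected ISG15 call was lost without EV library 2 or without either control. The promoters of 24 of the 31 genes had an entry, and 66.67% held the interferon response element GAAANNGAA, against 7.06% of all promoters. Of 22 genes of nucleic acid sensing and retroviral restriction, 5 were called higher and 8 lower without correction, 9 and 3 with it, and 2 and 2 in all 3 fits. CGAS, the sensor of cytosolic DNA, changed by -1.61 and -1.04, its adaptor STING1 by 0.84 and 0.48, and the cytidine deaminase APOBEC3C by 1.02 and 0.94. Of 17 genes of MHC class I presentation, 5 were called higher and 2 lower without correction and 3 and 0 in all 3 fits, among them the peptide loading factor TAPBP (1.02 and 0.64).

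Among genes of lipid synthesis and uptake, more were called higher than lower. SCD, the desaturase that makes oleate, was counted at 168 and 219 CPM in EV cells, against 76.0 and 69.4 CPM in Dox- controls. Both EV libraries lay above both controls. SCD rose by 1.41 ± 0.15 (SE) without correction and 1.58 with it, SREBF2, the factor that drives cholesterol synthesis, by 1.33 and 0.96, and DHCR7, which closes the pathway, by 1.15 and 0.75. IDI1, an isoprenoid isomerase, changed by -1.45 and -0.58. Of the 24 genes of cholesterol synthesis and uptake, 9 were called higher and 7 lower without correction, 11 and 4 with GC correction, 15 and 2 with correction for GC and length, and 8 and 2 in all 3 fits. Of all genes, 7.7% were called higher and 8.59% lower in all 3 fits, and the lower count was near that share.

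Genes of amino acid stress and the unfolded-protein response gave 12 called higher and 4 lower of 28 without correction, 14 and 1 with GC correction, and 8 and 0 in all 3 fits. DDIT4, an inhibitor of mTORC1, was counted at 32.4 and 40.4 CPM in EV cells, against 13.4 and 14.2 CPM in Dox- controls, and changed by 1.40 and 1.00. SLC7A5, a transporter of large amino acids, changed by 1.29 and 0.85. The factor ATF4 itself had a value of 0.30 that was called without correction and a GC-corrected one of -0.04 that was not. The uncorrected call was lost without EV library 2 (0.24), without either control (0.31 and 0.28), with the compared groups only (0.30) and with no filter on low counts (0.28). It shares 37.5% of its 31-base stretches with other genes. ASNS, asparagine synthetase, had a value of 0.40 that was not called and a GC-corrected one of 0.57 that was, and shares 83.0%. DDIT3, the factor CHOP, had values of -0.02 and -0.07, neither called. Of 22 NRF2 target genes, 4 were called higher and 11 lower without correction, 5 and 8 with it, and 1 and 7 in all 3 fits. GCLM, of glutathione synthesis, changed by -1.48 and -0.28. Of 28 genes of glycolysis and hypoxia, 8 were called higher and 8 lower without correction and 5 and 2 in all 3 fits, with the glucose transporter SLC2A1 at 0.73 and 0.43 and the mitophagy receptor BNIP3 at -1.23 and -1.36. Of 27 lysosome genes, 12 were called higher and 6 lower without correction and 6 and 3 in all 3 fits, with the regulator TFEB at 1.00 and 0.62 and the protease CTSK at -0.98 and -0.73. Among all genes, 7.7% were called higher and 8.59% lower in all 3 fits. The lower counts of the glycolysis and lysosome lists were near that lower share.

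Genes of ribosome biogenesis were called mostly lower. Of 25 tested, 3 were called higher and 12 lower without correction, 1 and 15 with GC correction, and 0 and 8 in all 3 fits, with medians of -0.30 and -0.32. NCL, nucleolin, was counted at 122 and 107 CPM in EV cells, against 233 and 249.7 CPM in Dox- controls, and changed by -1.08 and -0.93. NPM1, nucleophosmin, changed by -1.68 and -1.07 and shares 52.8% of its 31-base stretches with other genes, and GNL3, a nucleolar GTPase, changed by -1.34 and -0.49. Of 30 cytosolic ribosomal proteins, 0 were called higher and 15 lower without correction, 1 and 17 with GC correction, 6 and 6 with correction for GC and length, and 0 and 3 in all 3 fits. RPS24 was 1 of the 3, at -1.36 and -0.57. All 3 fits called 8.59% of all genes lower, and the count of cytosolic ribosomal proteins was near that share. The 13 mitochondrially encoded genes gave 4 called higher and 0 lower without correction, 12 and 0 with GC correction, and 4 and 0 in all 3 fits. MT-CO1, a subunit of cytochrome oxidase, was counted at 268 and 288 CPM in EV cells, against 206 and 183 CPM in the controls, and changed by 0.51 and 0.78. Its uncorrected call and those of MT-CO2 and MT-ND4 were lost without control library 2, the library with the lowest mitochondrial share.

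ID1, ID2 and ID3, inhibitors of helix-loop-helix factors that BMP signals induce, were called lower in all 3 fits. ID1 was counted at 26.2 and 26.9 CPM in EV cells, against 51.5 and 55.7 CPM in Dox- controls. The 3 genes changed by -1.01, -1.61 and -0.62 without correction and by -1.40, -1.81 and -0.98 with it, and ID2 and ID3 were named after their values were seen. NOG, the BMP antagonist noggin, changed by 0.98 and 0.57, the ligand TGFB3 by 0.97 and 0.97, the BMP antagonist GREM1 by -1.48 and -0.44 and the SMAD repressor SKIL by -1.87 and -0.53. In all, 26 TGF-beta and BMP genes gave 5 called higher and 10 lower without correction, 7 and 12 with it, and 3 and 8 in all 3 fits. Of 22 Wnt genes, 5 were called higher and 8 lower without correction and 2 and 5 in all 3 fits, with the factor TCF7 at 1.25 and 0.94 and the Wnt antagonist DKK1 at -1.54 and -0.96. Of 26 genes of MAPK feedback and immediate early response, 6 were called higher and 4 lower without correction, 6 and 10 with it, and 5 and 3 in all 3 fits. The feedback inhibitors SPRY4 and SPRY2 moved in opposite directions, at 0.71 and -0.65 without correction and 0.61 and -0.60 with it. Both uncorrected calls were lost without control library 2. Of 19 HOX genes tested, 3 were called higher and 2 lower in all 3 fits, with HOXB4 at 0.97 and 0.70 and HOXB7 at -1.08 and -1.19 without and with GC correction. Of 21 genes of lung mesenchyme identity, 1 was called higher and 2 lower in all 3 fits, and of 18 complement genes 2 higher and 1 lower. All 3 fits called 7.7% of all genes higher and 8.59% lower, and the lung mesenchyme and complement counts were near those shares. So were the higher counts of the TGF-beta and Wnt lists and the lower counts of the MAPK and HOX lists.

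**Figure D5:**
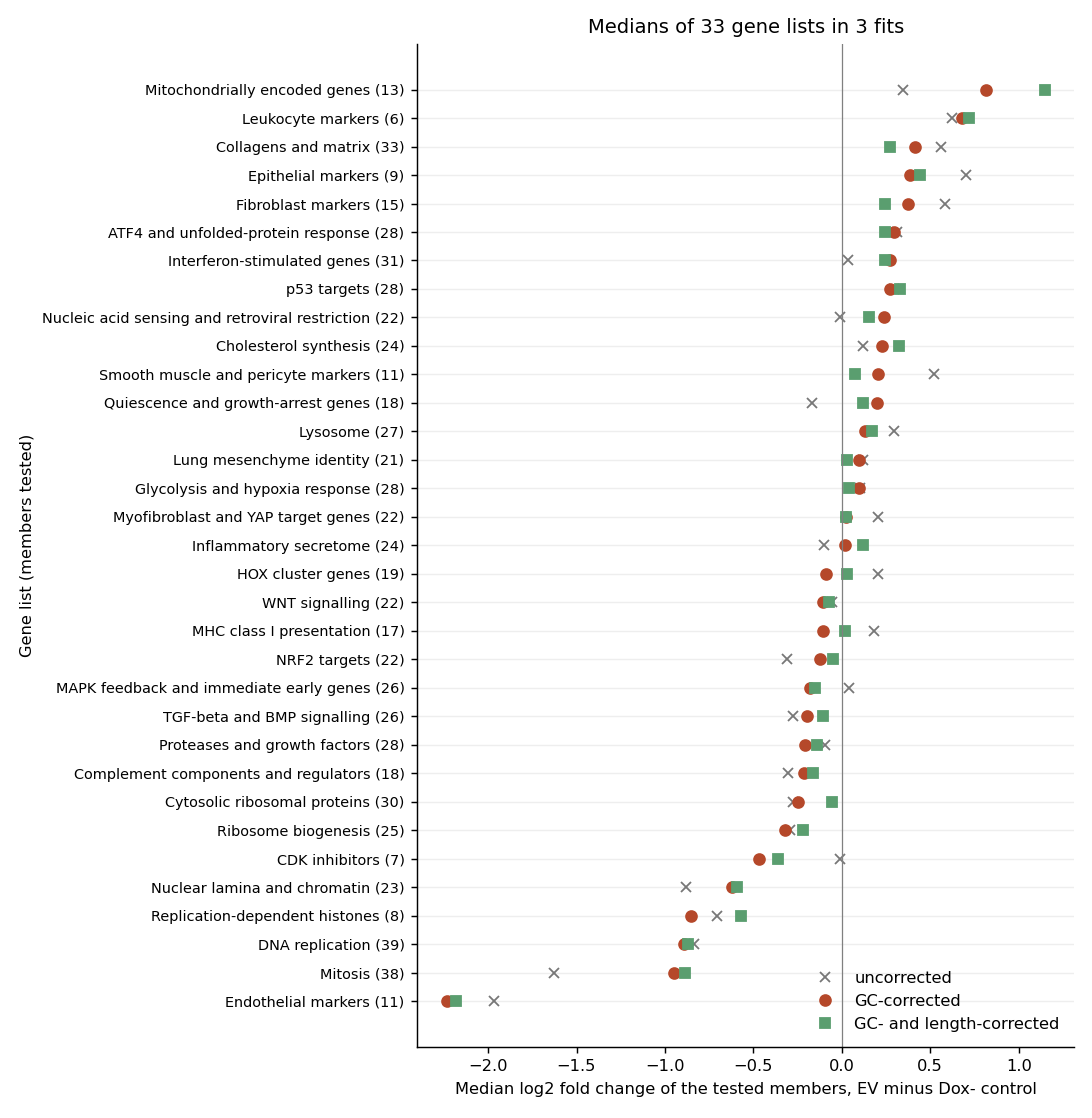
The median log2 fold change of EV against Dox- over the tested members of 33 gene lists, without correction (crosses), with GC correction (circles) and with correction for GC and length (squares). The mitosis list moves from -1.63 to -0.95 with GC correction, the DNA replication list lies at -0.84 and -0.89, the collagen and matrix list at 0.56 and 0.41, and the endothelial list is the lowest in the 3 fits.

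Called genes whose groups did not overlap were ranked without correction, small RNAs left out. Their average log2 CPM was at least 2 over the 8 libraries of the fit. NEAT1, the long noncoding RNA that builds paraspeckles, had the highest fold change among them. It was counted at 582 and 619 CPM in EV cells, against 137 and 115 CPM in Dox- controls. Both EV libraries were far above both controls, and NEAT1 rose by 2.25 ± 0.15 (SE) without correction (edgeR adjusted p = 3.11e-05), 2.80 with GC correction and 2.39 with correction for GC and length. It changed by -1.07 between mutant HRAS and EV and by 0.98 between doxorubicin and Dox-. CEMIP, a hyaluronan depolymerase, was counted at 311 and 391 CPM in EV cells, against 121 and 114 CPM in the controls, and rose by 1.57 and 1.34. The proteoglycan perlecan, HSPG2, rose by 1.48 and 0.99, the junctional membrane protein JPH2 by 1.56 and 1.09, the receptor FGFR4 by 1.49 and 1.02, the leucine-rich repeat gene LRRN4CL by 1.51 and 1.15 and the membrane skeleton ankyrin ANK1 by 2.02 and 1.62. The pseudogene MKRN5P rose by 2.50 and 2.397 and the antisense transcript PRKCA-AS1 by 2.79 and 3.17. ANK1, MKRN5P and PRKCA-AS1 are outside that ranking, as their average over the 8 libraries was under its limit. In CPM of protein-coding counts, MKRN5P stood at 10.2 and 10.1 in EV cells and 1.74 and 1.45 in the controls. PRKCA-AS1 stood at 11.9 and 10.1 in EV cells and 1.73 and 1.10 in the controls. MTRNR2L12, a nuclear copy of mitochondrial ribosomal RNA, rose by 2.06 and 3.04, shares 53.4% of its 31-base stretches with other genes, and is uncertain for that reason.

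On the lower side, CYP1B1, a cytochrome P450 of the aryl hydrocarbon response, was counted at 3.81 and 3.62 CPM in EV cells, against 21.8 and 20.3 CPM in Dox- controls. The 2 EV libraries nearly coincided, and CYP1B1 changed by -2.50 ± 0.13 (SE) without correction and -1.97 with it (edgeR adjusted p = 3.8e-06 and 1.58e-06), while it was 3.06 higher after doxorubicin than in Dox-. CYP1B1-AS1, which lies on the opposite strand and was named for that reason, changed by -1.77 and -1.86. HSD11B1, which activates cortisol, was counted at 0.251 and 0.128 CPM in EV cells, against 1.06 and 1.35 CPM in the controls, and changed by -2.63 and -1.96. It was low in all 4 libraries and stood at 15.97 and 14.2 CPM in Dox+ cells. The recombination factor RAD51AP1 changed by -2.67 and -1.39 and the spindle checkpoint gene MAD2L1 by -2.64 and -1.63, both with the EV libraries below the controls. ESM1, endocan, a proteoglycan of endothelium, was counted at 0.280 and 0.213 CPM in EV cells, against 1.92 and 2.18 CPM in the controls. It changed by -3.04 and -2.06, and stood at 26.9 and 23.3 CPM in mutant HRAS cells.

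Several endothelial markers were called lower in EV. Of the 11 endothelial markers tested, 1 was called higher and 7 lower without correction, 0 and 5 with GC correction, and 0 and 5 in all 3 fits, with medians of -1.97 and -2.23. CDH5, the cadherin of endothelial junctions, had 20 and 9 counts in EV cells, against 169 and 351 counts in Dox- controls. ERG, an endothelial transcription factor, had 2 and 1 counts in EV cells and 24 and 71 in the controls, and KDR, the main receptor for VEGF, had 3 and 11 counts and 62 and 117. The 2 controls differed from each other in these genes, with library 2 the higher one. TIE1, a receptor of endothelium, changed by -2.85 and -3.27, and VWF, von Willebrand factor, by -1.97 and -2.36, and CDH5 and KDR, named after their values were seen, by -4.10 and -3.55 without correction and -4.36 and -3.37 with it. Set against the median of the 5 untreated endothelial libraries of the series, in CPM of protein-coding counts, CDH5 stood at 0.0385% and 0.0210% in EV cells and 0.309% and 0.619% in the controls. VWF stood at 0.134% and 0.140% in EV cells and 0.382% and 0.570% in the controls, TIE1 at 0.0838% and 0.0828% and at 0.410% and 0.663%, and ESM1 at 0.135% and 0.100% and at 0.814% and 0.919%. EGFL7, ROBO4 and CLDN5 are named here as members of the list that went the other way. On the same scale EGFL7 stood at 18.1 and 22.7 CPM in EV cells and 13.3 and 14.5 CPM in the controls. ROBO4 stood at 1.52 and 2.24 CPM against 0.967 and 1.15 CPM. For CLDN5 the groups overlapped, at 0.514 and 0.951 CPM against 0.378 and 0.600 CPM. The summed level of the list, 159.5 and 150.1 CPM in EV cells against 188.5 and 195.8 in the controls, was mostly TEK, at 52.7% and 46.9% of its endothelial level in EV and 63.9% and 64.1% in the controls. MMP10 in the controls stood at 70.3% and 88.4% of its endothelial level and SERPINB2 at 503% and 773%. Low levels of CDH5 and TIE1 were not particular to EV. In CPM of protein-coding counts, CDH5 stood at 0.276 and 0.166 in Dox+ cells and 0.119 and 2.02 in mutant HRAS cells. That is beside 0.234 and 0.128 in EV cells and 1.88 and 3.76 in the controls. TIE1 stood at 0.158 and 0.229 in Dox+ cells and 2.89 and 3.92 in mutant HRAS cells. Without correction, 7 of the 11 were called lower and 2 higher in Dox+ than in Dox-, against 13.2% of all genes called lower. The part of these endothelial transcripts in the other results was not tested.

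Markers of other cell types were low. Of 9 epithelial markers tested, 3 were called higher and 0 lower in all 3 fits, among them the keratins KRT8 (1.00 and 0.65) and KRT18 (0.71 and 0.39), which share 35.3% and 43.3% of their 31-base stretches with other genes, and the summed level was 104.6 and 124 CPM in EV cells against 56.2 and 61.2 in Dox- controls. SFTPC, KRT5 and NKX2-1, defining genes of lung epithelium, had at most 4 counts in any of the 4 libraries. Of 6 leukocyte markers tested, 1 was called higher without correction and 0 were called in either direction with GC correction, and the summed level was 24.6 and 26.7 CPM in EV cells against 17.7 and 16.5 in the controls.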

How the data were processed

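The deposited files hold raw read counts per gene, one file per library, with whole numbers for 57773 gene identifiers. Per the submitters' processing notes, the authors used bcl2fastq, cutadapt, STAR 2.4, featureCounts and the hg19 build, and per the labels' protocols RNA was depleted of ribosomal RNA and sequenced in pairs. Strand use and the annotation release were not stated. Depth was 139060207 to 162915801 counts per library over the 4 libraries. Standard errors and tests rest on the spread within groups, pooled over all 8 libraries of the first WI-38 set.

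Groups came from the titles. Symbols came from a gene table, with 39880 identifiers given one. All 8 libraries of the first WI-38 set (mutant HRAS, EV, Dox+ and Dox-) entered the edgeR 4.0.16 quasi-likelihood fit (R 4.3.3, limma 3.58.1) with TMM scaling, filterByExpr and a term for group only. The contrast was EV minus Dox-, with Benjamini-Hochberg adjustment over all genes tested and a threshold of 0.05. The procedure was tested on simulated data, with and without a GC relation of the same size in every EV and mutant HRAS library. The real EV libraries differed from each other along GC content, and the length correction was not simulated. That test therefore cannot decide how well the corrected calls hold in these data. Corrected fits add an offset per library, a robust spline with 6 degrees of freedom on the GC content of the longest GRCh38 transcript, available for 93.7% of genes tested, and a further one on its length. They were chosen after seeing the data. GRCh38 served only for composition, overlaps, shared stretches and promoters (RefSeq). DESeq2 1.42.0 was an alternative, among 20 settings in all.

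The members and the gene lists were chosen with earlier results of these data known. Named genes are a set of fixed genes, the 10 called genes of highest and the 10 of lowest fold change that had an average log2 CPM of at least 2 and groups that do not overlap, up to 3 members a list and direction in order of adjusted p, and the 5 genes a direction with the smallest adjusted p over all. The average log2 CPM was taken over all 8 libraries of the fit. Genes outside this rule are said to be so. Small RNAs and some other genes are not reported here. There were 0 unmapped columns. The replicate numbers of EV and Dox- did not pair the libraries (correlation of deviations 0.03).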

Additional observations from a re-analysis of the deposited data

How the results depend on the processing

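Without correction, 4588 genes were called higher and 6427 lower. Another scaling, no filter on low counts, the DESeq2 test, all 37 libraries, the compared groups only, the removal of small RNAs and mitochondrial genes, and protein-coding genes only gave 3880 to 5489 higher and 4876 to 6673 lower, with 0 calls in the opposite direction. Protein-coding genes only gave 798 at least 2-fold higher. With the replicate block the counts were 5022 and 6712, and the numbers do not pair the libraries. Leaving out 1 library gave 2152 (without control library 1) to 5579 higher, 5051 to 7240 lower, 877 (without EV library 2) to 1578 at least 2-fold higher and 2279 (without EV library 2) to 5007 at least 2-fold lower.

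The corrections for GC content were chosen after seeing the data and moved the count of lower calls by over 1.5 times. GC correction gave 3961 lower and 784 at least 2-fold lower. With GC and length it gave 3550 and 540, and 2663 at least 2-fold higher. With the GC correction and the replicate block the counts were 3968 and 791, and with the compared groups only 3250 and 683. With GC correction and without EV library 1, EV library 2, control library 1 or control library 2, 4271, 3042, 2893 or 2500 genes were lower, of which 1218, 457, 761 or 603 were at least 2-fold lower. Calls in the opposite direction numbered 592 with GC correction and 728 with GC and length. The median of all genes was 0.07 without correction, 0.12 and 0.18 in these fits and 0.17 with all 37 libraries.

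Several named genes had a log2 fold change of the other sign under some settings. For the next 6 genes, values with GC correction are given alone, with the replicate block and with the compared groups only, and then, where the sign also turned, without EV library 1, EV library 2, control library 1 and control library 2 in turn. CDKN2A (0.01 without correction) had -0.44, -0.44 and -0.44, and then -0.44, -0.44, -0.50 and -0.37. HRAS (0.12 without correction) had -0.36, -0.36 and -0.37, and then -0.34, -0.39, -0.41 and -0.31. IL6 (-0.01 without correction) had 0.47, 0.47 and 0.49, and then 0.64, 0.31, 0.44 and 0.50. MDM2 (-0.50 without correction) had 0.31, 0.30 and 0.33, and then 0.29, 0.32, 0.30 and 0.30. ACTA2 (0.17 without correction) had -0.0087, -0.0086 and -0.017, and then -0.031 and -0.036, without EV library 2 and control library 1 in turn. ATF4 (0.30 without correction) had -0.043, -0.046 and -0.041, and then -0.14, -0.012 and -0.072, without EV library 1, control library 1 and control library 2 in turn. With correction for GC and length CDKN2A had -0.19, IL6 had 0.76, DDIT3 had 0.30 and HRAS had -0.14. CXCL8 (-1.83) had 0.24 with GC correction and without control library 2. IL1B (-0.89) had 2.30 with GC correction and without control library 2. DDIT3 (-0.02) had 0.038 with GC correction and without EV library 2. With the DESeq2 test, its size factors, all 37 libraries and protein-coding genes only, CDKN1C (-0.01) had 0.0079, 0.0080, 0.12 and 0.092, IL6 (-0.01) had 0.0076, 0.0079, 0.12 and 0.092 and DDIT3 (-0.02) had 0.0033, 0.0032, 0.11 and 0.086. CDKN2A (0.01) had -0.018 with no filter on low counts and PLK1 (-0.13) had 0.0090 with all 37 libraries. Without correction, leaving out 1 library gave -0.18 to 0.15 for CDKN2A, -0.13 to 0.065 for CDKN1C, -0.091 to 0.029 for IL6, -1.80 to 1.97 for IL1B, -0.10 to 0.025 for DDIT3, -0.11 to 0.29 for HRAS and -0.31 to 0.0046 for PLK1. The cause was not tested.

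With 2 libraries a group, precision rests on the spread within the groups of the fit. Genes at a few counts, such as CCL20, ERG and KDR, are also limited by depth.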
